A study of Homo sapiens with 9 samples.

Results

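The cells described here were EGI-1, a long-established human cell line from a cancer of the bile duct (cholangiocarcinoma). They carried a tetracycline-inducible hairpin labelled GFPsh, the control of a study of the transcription factor FOSL1. The 3 libraries titled as GFPsh replicates were taken, of 9 libraries in all, and nothing measured entered the choice. The other 6 libraries, 3 each, came from EGI-1 cells with the hairpins FOSL1sh3 and FOSL1sh10, and serve here only for comparison. All 9 shared the line, DMEM medium with 10% FBS, doxycycline at 2 ug per ml over 4 days and a period of 24 h after seeding, so the levels below are those of cells that carried an induced hairpin. Parental and untreated EGI-1 cells were not analysed here. The labels state neither whether the cells were a clone or a pool nor that replicates came from separate cultures, so the spread between libraries, and every p-value resting on it, may be technical.

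Cholangiocytes, the epithelial cells that line bile ducts, are known by the simple-epithelial keratins KRT7 and KRT19, by surface proteins such as EPCAM, and by channels and transporters that modify bile. Hepatocytes arise from the same embryonic progenitors and are known instead by plasma proteins and liver enzymes. Keratins are intermediate filament proteins that pair as a type I with a type II chain, and the pairs in use mark the kind of epithelium: simple, stratified or hair-forming. Squamous epithelium is known by TP63 and the cornified envelope, and mesenchymal cells by vimentin, fibrillar collagens and the ZEB, SNAI and TWIST transcription factors.

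Levels are given as CPM, the count of a gene scaled to a common library total, and every ± is the SD over the 3 GFPsh libraries (n = 3). A gene is called expressed where it reached 1 CPM in each of the 3, and at the floor where each held 3 counts or fewer, which is 0.326 to 0.413 CPM at totals of 7259635, 9015680 and 9211445 counts. A count of 0 allows a level up to that floor. These libraries tag transcripts near their 3' ends, so CPM was not divided by length. Where 2 genes are set against each other, CPM per kilobase of exon is given too. That length joins all annotated exons of a gene and is not the length of the transcript in use. Counts of 3' tags need not grow with it, so an order that differs between the scales is not settled. By these rules 11717 of 58381 genes (20.1%) and 10535 of 19881 protein-coding genes (53%) were expressed, and 7304 protein-coding genes (36.7%) were at the floor. Across the 11717 expressed genes the libraries correlated at Pearson r = 0.984 to 0.987 on log2(CPM + 1), a description across genes within these libraries. The median coefficient of variation was 13.9% over expressed genes and 9.03% over the 1449 genes at 100 CPM or more in all 3 libraries.

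The most abundant transcripts were those of the translation machinery, of mitochondria, and of a hair keratin. Of the 25 genes with the highest mean CPM, 18 encoded ribosomal proteins, led by RPLP1 at 12284 ± 891 CPM and RPS12 at 10715 ± 942 CPM. The mitochondrial members were MT-CO3, a cytochrome c oxidase subunit, at 9617 ± 1240 CPM, and MT-RNR2, the large mitochondrial ribosomal RNA, at 6690 ± 1355 CPM. The remaining 5 were KRT81, ACTG1 (cytoplasmic gamma-actin, 6782 ± 556 CPM), S100A6 (a calcium-binding S100 protein, 6274 ± 844 CPM), MT2A (a metal-binding metallothionein, 5945 ± 685 CPM) and TMSB10 (the actin-binding thymosin beta-10, 5410.4 ± 345 CPM). Together the 25 genes took 18.7% ± 0.50 of all counts.

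Ribosomal protein genes as a class took 25.4% ± 0.80 of counts, mitochondrial genes 2.60% ± 0.24 and the 54 keratin genes 2.20% ± 0.11. Ranking by CPM per kilobase of exon kept 19 of the 25 and put RPS12, MT-CO3, TMSB10, RPS21 and S100A6 ahead of KRT81. RPL13 had the widest spread of the 25 in CPM, with 7705, 8789.6 and 4402 in the 3 libraries. Replicate 3 was the low one. Ribosomal protein genes have many processed pseudogenes that can take or cost reads, so their single levels are uncertain, as is RPL38, whose last 500 exon bases are all shared with another annotated gene.

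**Figure D1:**
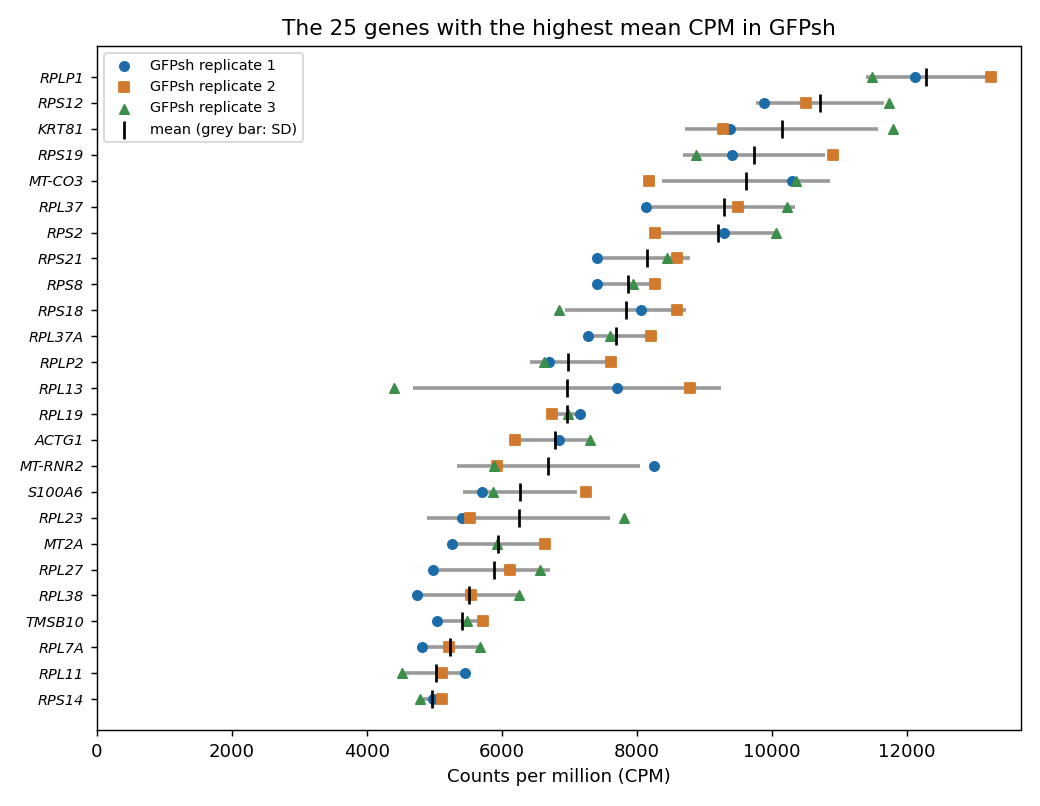
CPM (x axis) of the 25 genes with the highest mean in the GFPsh libraries (y axis), with a point for each library, a tick for the mean and a grey bar for the SD. KRT81, at a mean of 10151 CPM, stands between the ribosomal protein genes RPS12 and RPS19, and RPL13 has 1 library at 4402 CPM.

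KRT81, a type II keratin known from the hair cortex, was the most abundant gene outside the ribosomal and mitochondrial classes. It lies on chromosome 12 at 52285913 to 52291534 on the minus strand (hg38), and stood at 9377, 9275 and 11800 CPM, a mean of 10151 ± 1429. Replicate 3 was the highest and the other two were alike. KRT81 made up 46.1% ± 4.17 of all keratin counts. By level per kilobase of exon it was also first among the keratins, at 5262 CPM per kb, against 1758 for KRT19 and 1201 for KRT18.

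Of 54 keratin genes, 17 were expressed (31.5%, against 53% of protein-coding genes). Another 33 were at the floor, 26 of these with no count in any of the 3 libraries. Keratins listed here as simple-epithelial, with KRT80 placed among them, were nearly all present: 6 of 7 were expressed, each above 100 CPM. KRT19, the type I keratin of ductal epithelium, stood at 4062, 4254 and 4002 CPM. KRT18, at 3795, 4130.0 and 3674 CPM, overlapped it. KRT8, the type II partner of KRT18 in simple epithelia, stood at 1599, 1795 and 1528 CPM. KRT80 followed at 489 ± 55.1 CPM. KRT7, the type II keratin commonly used to identify bile duct epithelium, stood at 238, 217 and 231 CPM, a tight range. KRT20, a keratin of intestinal and urothelial surface cells, stood at 130.2, 127 and 181 CPM. Replicate 3 lay above the others. KRT23 was the exception, with 1, 0 and 3 counts.

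Keratins of stratified epithelia were present in part. Of 21 basal and squamous keratins 8 were expressed, 4 of them above 100 CPM. KRT10, a type I keratin of suprabasal epidermis, stood at 494, 504 and 606 CPM. Its level per kilobase of exon, 249 CPM per kb, was close to the 238 CPM per kb of KRT8, although KRT8 was higher in CPM. KRT6A, a keratin of wound-edge and stratified epithelium, stood at 467, 479 and 388 CPM. KRT17 stood at 183, 124 and 133 CPM and KRT5, the type II keratin of basal cells, at 131, 114 and 114 CPM. KRT14, the usual type I partner of KRT5, held only 7, 5 and 3 counts (0.61 CPM). The other expressed members were KRT13 (24.9 ± 3.79 CPM), KRT15 (17.5 ± 2.52 CPM), KRT16 (8.03 ± 1.40 CPM) and KRT6B (3.64 ± 1.30 CPM). KRT13 shares 66.8% of its last 500 exon bases with another gene, and reads there are not counted for either. KRT1, the type II partner of KRT10 in epidermis, had no count, and neither did KRT2, KRT3, KRT24, KRT76, KRT77 and KRT79.

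Beside KRT81, hair and root sheath keratins were mostly silent: 3 of 26 were expressed, 22 were at the floor and 19 of these had no count. KRT86, another type II hair keratin, stood at 13.8, 14.5 and 13.9 CPM, and KRT34, a type I hair keratin, at 6.89, 5.32 and 7.27 CPM. KRT83 was just below the threshold, with 4, 10 and 9 counts (0.88 CPM). Type I hair keratins other than KRT34, including KRT31, KRT33A and KRT35, had no count, apart from 2 counts of KRT33B in 1 library.

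Since near-identical copies can share or lose reads, the ends of the coding sequences of KRT81 and its relatives are shown. The last 90 coding bases, 5′ to 3′, from GENCODE release 29 transcripts on chromosome 12 (hg38), have the stop codon in capitals.
KRT81: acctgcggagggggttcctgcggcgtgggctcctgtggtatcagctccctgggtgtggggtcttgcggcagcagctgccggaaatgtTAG
KRT86: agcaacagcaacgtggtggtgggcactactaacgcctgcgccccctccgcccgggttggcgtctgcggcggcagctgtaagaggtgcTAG
KRT83: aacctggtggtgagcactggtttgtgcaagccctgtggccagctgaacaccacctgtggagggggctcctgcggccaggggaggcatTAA
The coding sequences of KRT81 and KRT86 were 90.1% identical and those of KRT81 and KRT83 89.4%. The last 300 transcript bases, at the end that the protocol tags, were 50.8% and 51.4% identical. Where in these genes the reads fell was not examined. The gene model of KRT86 runs from 52249300 to 52309163 on the plus strand and so encloses KRT81, and the deposited counts do not separate strands. None of the last 500 exon bases of KRT81, KRT86 or KRT83 is shared with another gene.

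KRT6A, KRT6B and KRT6C are closer still, and their coding ends are shown for that reason, with bases that differ from KRT6A in capitals.
KRT6A: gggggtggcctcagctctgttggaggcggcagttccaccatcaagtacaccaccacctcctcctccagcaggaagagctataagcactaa
KRT6B: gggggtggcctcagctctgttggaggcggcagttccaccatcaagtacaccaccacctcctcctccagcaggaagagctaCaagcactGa
KRT6C: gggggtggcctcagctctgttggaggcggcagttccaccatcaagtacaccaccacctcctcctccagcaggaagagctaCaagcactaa
Over 90 bases KRT6B differed from KRT6A at 2 positions and KRT6C at 1. Their coding sequences were 97.5% (KRT6A and KRT6B) and 97.9% (KRT6A and KRT6C) identical. In the last 300 transcript bases KRT6A was 53.4% identical to KRT6B and 84.9% identical to KRT6C. KRT6A stood at 445 ± 49.6 CPM, against 1, 2 and 0 counts of KRT6C, and the split of reads between these 2 genes is uncertain.

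**Figure D2:**
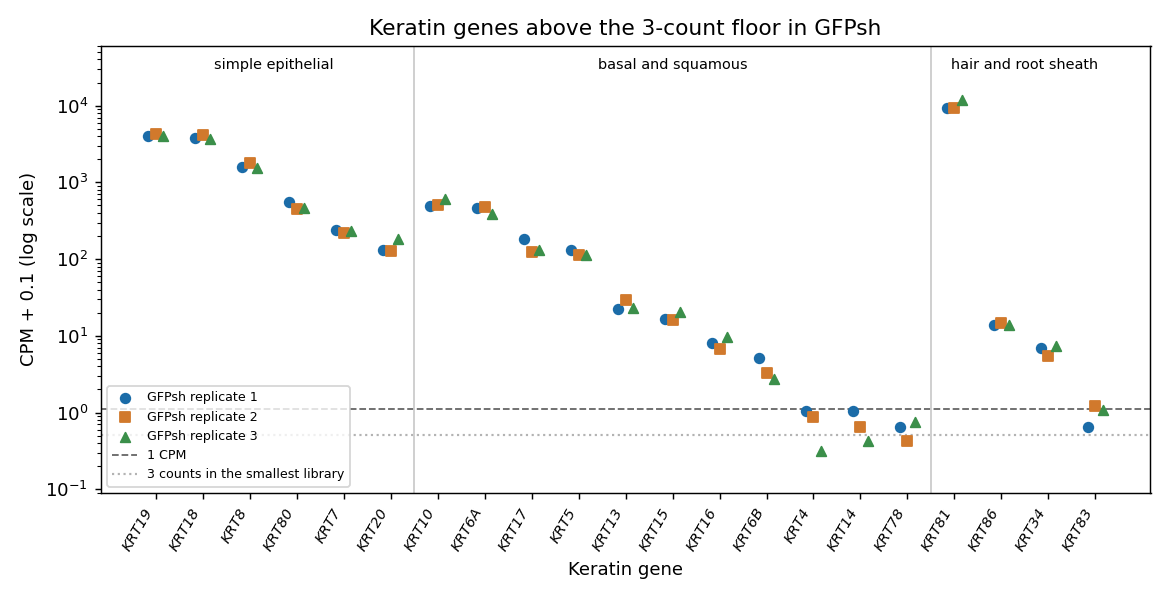
CPM + 0.1 (log scale, y axis) of every keratin gene above the floor (x axis), grouped by the class it was listed under, with a point for each GFPsh library. KRT81 lies above all other keratins, while KRT86, KRT34 and KRT83 beside it have means of 14.1, 6.50 and 0.88 CPM.

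Mucins, the heavily glycosylated proteins of mucus and of the cell surface, were led by the membrane-bound MUC1. MUC1 stood at 213, 241 and 226 CPM, and was the only one of 20 mucin and trefoil genes above 100 CPM in all 3 libraries. In all 9 of the 20 were expressed (45%, against 53% of protein-coding genes) and 7 were at the floor. The other membrane-bound mucins were low in CPM: MUC13 at 11.9 ± 0.842, MUC4 at 11.5 ± 2.84, MUC16 (the CA125 antigen) at 8.53 ± 1.89 and MUC21 at 3.82 ± 1.04. MUC3A, MUC12, MUC15 and MUC17 had no count. MUC17 shares 53.8% of its last 500 exon bases with another gene, and MUC20, with 2, 3 and 6 counts, shares 71.6%.

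Gel-forming mucins were scarcely present. MUC5AC, the main mucin of gastric surface cells, stood at 4.13, 5.88 and 4.89 CPM and MUC2, the intestinal mucin, at 1.52, 2.22 and 1.09 CPM. MUC5B, at 0.826, 2.44 and 2.28 CPM, missed the threshold in replicate 1. Trefoil factors, small secreted peptides that accompany mucins, were higher on both scales, with 82.5 CPM per kb for TFF1 against 0.285 for MUC5AC. TFF1 stood at 47.0, 45.4 and 44.0 CPM and TFF2 at 33.7, 35.4 and 36.0 CPM. Both varied little between libraries. TFF3, the trefoil factor of intestinal goblet cells and bile ducts, held 0, 1 and 6 counts.

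Genes of epithelial cell contacts were widely expressed. Of 61 adhesion genes 44 passed the threshold (72.1%, against 53% of protein-coding genes), 13 above 100 CPM, and 16 were at the floor. EPCAM, the epithelial cell adhesion molecule, was the highest at 979, 981 and 1057 CPM, and was first per kilobase of exon too, at 399 CPM per kb. CDH1 (E-cadherin), the adherens junction cadherin of epithelia, stood at 198, 179 and 233 CPM, and CDH3 (P-cadherin) at 57.2, 49.0 and 44.8 CPM. No other gene of the list named CDH was above the floor: CDH2 (N-cadherin) held 0, 2 and 2 counts, and CDH11 and CDH17 none.

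Desmosome genes were expressed in 9 of 11 cases, led by JUP (plakoglobin) at 189 ± 28.4 CPM, DSG2 at 179.9 ± 26.1 CPM and DSP (desmoplakin) at 118 ± 23.4 CPM. The absent ones, DSG3 and PKP1, are desmosome proteins known from squamous epithelium. DSC3, also in the squamous list, was expressed at 6.44 ± 0.925 CPM. Tight junction genes were expressed in 8 of 13 cases. CLDN7 stood at 160.2, 171 and 113 CPM, CLDN4 at 129, 139.9 and 142 CPM, and the junction adhesion molecule F11R at 90.4, 82.2 and 96.9 CPM. CLDN2 and CLDN18 had no count. CLDN10 had none either, but it shares 100% of its last 500 exon bases with other genes.

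Integrins, the receptors that anchor cells to matrix, were expressed in 11 of 13 cases. ITGA3 stood at 378, 315 and 309.7 CPM, ITGB1 at 312, 309 and 278 CPM, and ITGB4, the partner of ITGA6 in hemidesmosomes, at 204, 206 and 180.4 CPM. ITGA3 was higher than ITGB1 in CPM but lower per kilobase of exon, at 34.1 against 49.9 CPM per kb. ITGA6 followed at 99.3 ± 6.79 CPM and ITGA2, a collagen receptor chain, at 68.3 ± 7.01 CPM. ITGA4 and ITGB3, integrins of leukocytes and platelets among other cells, had no count. Of the remaining adhesion genes 12 of 15 were expressed, led by the hyaluronan receptor CD44 (149 ± 9.55 CPM), NECTIN2 (116 ± 11.4 CPM) and CEACAM6 (82.5 ± 5.31 CPM). VCAM1 had no count. CEACAM6 was above CEACAM1 (5.90 ± 0.948 CPM) and CEACAM5 (1.58 ± 0.410 CPM) on both scales, at 27.0 against 1.07 and 0.472 CPM per kb.

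Of 29 bile duct markers 15 were expressed (51.7%), a share close to the 53% of all protein-coding genes, and they split by role. All 8 surface and keratin markers were expressed: KRT19, EPCAM, KRT7, MUC1 and CLDN4 among those above 100 CPM, then CD24 at 59.7 ± 3.44 CPM and PROM1 (CD133) at 2.18 ± 0.447 CPM. CD24 has near-identical pseudogenes, so its level is uncertain. Of 5 transcription factors and Notch pathway genes 4 were expressed. SOX9, a biliary and progenitor transcription factor, stood at 51.2, 47.8 and 48.2 CPM, the receptor NOTCH2 at 22.2, 14.97 and 20.2 CPM, and the Notch ligand JAG1 at 7.71, 9.65 and 8.03 CPM. ONECUT1 (HNF6) had no count.

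None of the 8 genes by which cholangiocytes modify bile was expressed. CFTR, the apical chloride channel, had 1 count in all, AQP1, a water channel, had 1, 0 and 2 counts, and GPBAR1, the bile acid receptor TGR5, had 1. SCTR, the secretin receptor, and SLC10A2, the apical bile acid transporter, had none. SLC4A2, the anion exchanger AE2, held 1, 10 and 4 counts, and shares 86.4% of its last 500 exon bases with another gene. GGT1, with 3, 4 and 4 counts, belongs to a family of near-identical copies. Of 8 cilium, cyst and secreted genes 3 were expressed: ANXA4 at 129, 109 and 104 CPM, BICC1 at 2.54 ± 0.511 CPM and PKD2 at 2.46 ± 0.872 CPM. SPP1 (osteopontin) had 1 count, and PKHD1, the fibrocystin gene, 4, 5 and 4. PKD1 had 3 counts in 1 library, but all of its last 500 exon bases are shared with another gene.

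Hepatocyte genes were nearly all absent. Of 34, 2 were expressed (5.88%, against 53% of protein-coding genes) and 27 were at the floor, 18 of them with no count. ALB, APOA2, TTR, FGA, FGG, AHSG, AFP and F9 among plasma proteins had no count, and neither did the enzymes CYP3A4, CYP2E1, CYP7A1, CYP8B1, ARG1, TDO2 and PCK1. HNF4A, the main transcription factor of hepatocyte identity, held 3, 2 and 0 counts. The expressed members were FAH, the last enzyme of tyrosine breakdown, at 71.5, 62.1 and 73.7 CPM, and SERPINA1 (alpha-1 antitrypsin) at 7.03, 5.32 and 6.19 CPM. Both are also made outside the liver. ASGR1, an asialoglycoprotein receptor subunit, held 3, 9 and 2 counts, and its partner ASGR2 none. The summed level of the whole list was 71.1 to 81.4 CPM.

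Squamous genes were expressed in part. Of 33, 14 were expressed (42.4%, against 53% of protein-coding genes) and 13 were at the floor. TP63, the master regulator of squamous and basal identity, had 1 count in all. Keratins made up 7 of the 14 and are given above. Among cornified envelope genes 4 of 13 were expressed. PI3 (elafin), a protease inhibitor of squamous surfaces, stood at 126, 124 and 135 CPM, SPRR3 at 27.3, 24.2 and 27.4 CPM, TGM1 at 8.80 ± 2.79 CPM and SPRR1B at 5.10 ± 1.43 CPM. IVL (involucrin), at 10, 11 and 9 counts, and SPRR2A were under the threshold in replicate 3. FLG, LORICRIN, TGM3, CSTA, SBSN and CRNN had no count.

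SFN (stratifin, 14-3-3 sigma) was the highest squamous gene that is no keratin, at 349.9, 285 and 286 CPM, and was first of these per kilobase of exon too, at 232 CPM per kb against 223 for PI3. CALML5 stood at 6.53 ± 0.80 CPM and DSC3 at 6.44 ± 0.925 CPM. S100A8 had no count, S100A7 had 1 and S100A9 had 5, 0 and 4. SERPINB3 had no count and SERPINB4 3, 0 and 4. SERPINB3 and SERPINB4 are near-identical, and SERPINB3 shares 68.0% of its last 500 exon bases with another gene, so neither is well measured here.

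Mesenchymal genes were mostly absent, with 20 of 29 at the floor. In all 9 were expressed (31.0%, against 53% of protein-coding genes), 1 of them above 100 CPM. That 1 was S100A4, also called fibroblast-specific protein but widely expressed, at 715, 874 and 758 CPM. VIM (vimentin), the intermediate filament protein of mesenchymal cells, stood at 7.58, 4.88 and 3.80 CPM. Per kilobase of exon VIM stood at 1.05 CPM per kb, against 1201 for KRT18. SNAI2 (Slug) stood at 38.7, 31.3 and 38.5 CPM, SNAI1 (Snail) at 3.70 ± 1.10 CPM and ZEB1 at 1.25 ± 0.265 CPM. ZEB2 had 2 counts, and TWIST1, TWIST2, PRRX1 and FOXC2 none.

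Matrix genes were expressed in 3 of 11 cases: FN1 (fibronectin) at 29.2 ± 3.53 CPM, TNC (tenascin-C) at 26.7 ± 1.52 CPM and COL1A1 at 3.11 ± 0.917 CPM. COL1A2, the partner chain of COL1A1 in type I collagen, had no count, nor had COL3A1, COL5A1, POSTN, DCN and LUM. The fibroblast surface genes PDGFRA, PDGFRB, FAP and THY1 had no count in any of the 3 libraries. For FAP this is limited, because all of its last 500 exon bases are shared. The same share was 69.8% for ACTA2 (no count) and 89.2% for TAGLN (2.02 ± 0.397 CPM).

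**Figure D3:**
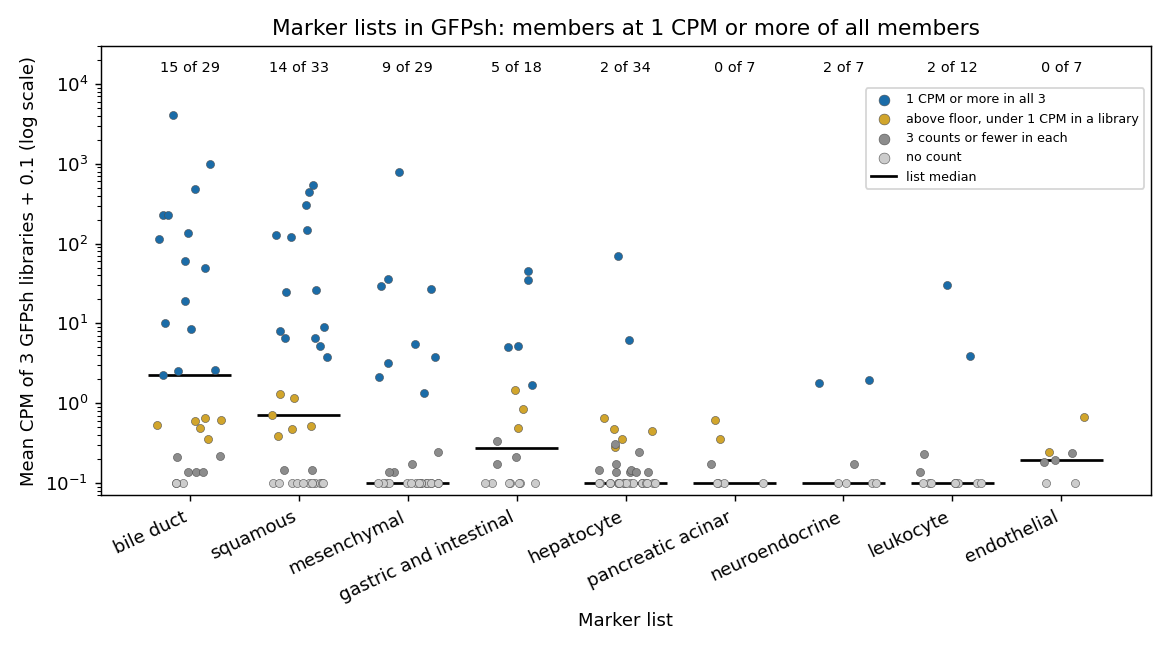
Mean CPM + 0.1 (log scale, y axis) of each gene of 9 marker lists (x axis) in the GFPsh libraries, coloured by whether it was expressed or at the floor, with the list median as a bar and the number expressed above. Bile duct genes reach 15 of 29 expressed and squamous genes 14 of 33, against 2 of 34 hepatocyte genes and 0 of 7 pancreatic acinar or endothelial genes, where 53% of all protein-coding genes were expressed.

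Transcription factors of epithelial identity were widely expressed, and those of liver, pancreas and gut only in part. Of all 45 factors 23 passed the threshold (51.1%, close to the 53% of protein-coding genes) and 16 were at the floor. Of 14 epithelial factors 12 were expressed (85.7%). ELF3 stood at 109, 122 and 128 CPM, EHF, a related ETS factor, at 58.3, 51.6 and 70.3 CPM, and KLF5 at 53.7, 43.6 and 49.6 CPM. GRHL2, a regulator of epithelial junction genes, stood at 22.0 ± 2.46 CPM and OVOL2 at 26.2 ± 1.89 CPM. OVOL1 missed the threshold in 1 library and shares 72.0% of its last 500 exon bases.

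Of 17 foregut and liver factors 7 were expressed. CEBPB, a stress and inflammation-related C/EBP factor, was the highest at 164, 194 and 159 CPM, while CEBPA, the hepatocyte form, had no count but shares all of its last 500 exon bases with another gene. FOXA1 stood at 14.4 ± 0.752 CPM and ONECUT2 at 13.4 ± 1.72 CPM. GATA6, a foregut factor, stood at 4.80 ± 0.623 CPM. FOXA2, FOXA3 and HNF4G had means above 1 CPM but missed it in at least 1 library. NR1H4 (the bile acid receptor FXR) had no count. Of 8 pancreas and gut factors 2 were expressed, PDX1 at 6.58 ± 1.74 CPM and CDX2 at 5.03 ± 0.988 CPM, and PTF1A, NEUROD1, NEUROG3, NKX2-2 and CDX1 had no count. Of the factors of other organs MITF stood at 16.9 ± 1.09 CPM and PAX8 at 2.18 ± 0.447 CPM, and SOX2, SOX17, SOX10 and NKX2-1 had no count.

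Receptors were expressed in 72 of 118 cases (61.0%, against 53% of protein-coding genes), and 33 were at the floor. Receptor tyrosine kinases, the growth factor receptors, were expressed in 14 of 29 cases (48.3%). EPHA2, an ephrin receptor, was the highest at 317, 343 and 284 CPM, then DDR1, a collagen receptor, at 190.0, 193 and 192 CPM. Their libraries did not overlap, and the order held per kilobase of exon, at 75.6 and 21.0 CPM per kb. AXL stood at 112, 99.6 and 103 CPM, 20.3 CPM per kb, which is close to DDR1 on that scale.

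EGFR stood at 77.0, 55.0 and 64.5 CPM, MST1R (RON) at 46.8, 53.7 and 56.2 CPM and MET, the receptor of hepatocyte growth factor, at 42.8, 43.1 and 45.8 CPM. The libraries of EGFR and MST1R overlapped in CPM. ERBB3 stood at 20.6 ± 2.77 CPM and ERBB2 at 14.9 ± 4.69 CPM, but all of the last 500 exon bases of ERBB2 are shared with another gene. The fibroblast growth factor receptors were low: FGFR1 stood at 11.1 ± 0.514 CPM, and FGFR2, which is rearranged in some bile duct cancers, held 1, 4 and 9 counts. ERBB4, RET, ROS1 and FLT1 had no count, and KIT, ALK and KDR had 1 or 2.

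Cytokine and death receptors were expressed in 17 of 22 cases. PLAUR, the urokinase receptor, stood at 123, 124 and 108 CPM, the interleukin 6 receptor IL6R at 104, 126 and 124 CPM, and the death receptor TNFRSF21 at 133, 126 and 89.5 CPM. These 3 overlapped. IL6ST (gp130), the signalling partner of IL6R, was far lower on both scales, at 3.99 ± 0.730 CPM and 0.429 CPM per kb against 18.3 for IL6R. LIFR and OSMR, which also pair with gp130, had no count. TNFRSF1A (70.2 ± 7.43 CPM), TNFRSF10B (61.3 ± 8.28 CPM) and the interferon gamma receptor chains IFNGR2 (53.2 ± 9.18 CPM) and IFNGR1 (39.8 ± 4.14 CPM) followed. IFNAR2 (2.37 ± 0.255 CPM) shares all of its last 500 exon bases with another gene. IFNAR1, its partner in the type I interferon receptor, stood at 30.3 ± 4.72 CPM.

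Receptors of the TGF-beta, BMP, Notch and Wnt pathways were expressed in 18 of 25 cases, none above 100 CPM in all 3 libraries. TGFBR2 was the highest at 86.6, 70.3 and 104 CPM, and its partner TGFBR1 stood at 5.92, 3.44 and 4.34 CPM. The order held per kilobase of exon, at 18.5 and 0.667 CPM per kb. LRP5, a Wnt co-receptor, stood at 33.0 ± 2.35 CPM, LGR4, a receptor of R-spondins, at 18.0 ± 1.70 CPM and NOTCH1 at 13.3 ± 1.76 CPM. LGR5, the stem cell counterpart of LGR4, had no count.

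G protein-coupled receptors were expressed in 9 of 21 cases. GPRC5A, an orphan receptor induced by retinoic acid, was the highest receptor in CPM at 577, 646 and 627, but stood below EPHA2 per kilobase of exon, at 73.1 against 75.6 CPM per kb. F2RL1, the protease-activated receptor PAR2, stood at 112, 87.4 and 87.5 CPM and the lysophosphatidic acid receptor LPAR1 at 48.2, 47.9 and 55.5 CPM. The chemokine receptor CXCR4 varied, at 1.93, 5.66 and 4.56 CPM. Of the somatostatin receptors SSTR1 and SSTR5 had no count and SSTR2 held 2, 3 and 5.

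Nuclear receptors were expressed in 14 of 21 cases. PPARG, the fatty acid receptor known from fat cells and luminal epithelia, was the highest at 126, 109.9 and 138 CPM, and VDR, the vitamin D receptor, stood at 55.0, 60.8 and 59.4 CPM. The shared partner RXRA stood at 51.5 ± 3.73 CPM and the oxysterol receptors NR1H2 and NR1H3 at 48.3 ± 4.83 and 31.4 ± 2.30 CPM. The glucocorticoid receptor NR3C1 stood at 22.4 ± 4.55 CPM. Of the female sex steroid receptors ESR1 held 2, 0 and 2 counts and PGR none. The xenobiotic receptors NR1I2 and NR1I3 had 0 and 1 counts, and all of the last 500 exon bases of NR1I3 are shared.

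**Figure D4:**
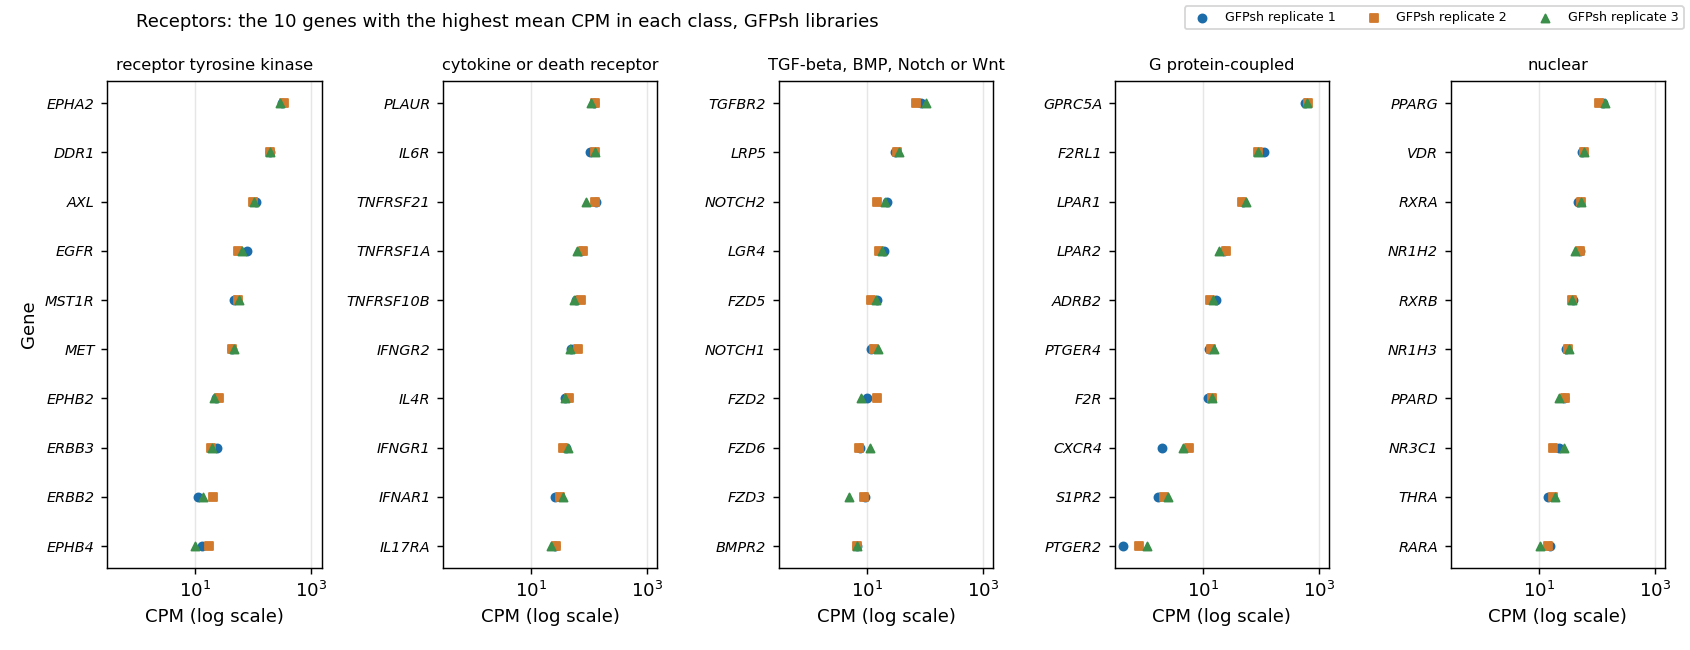
CPM (log scale, x axes) of the 10 receptor genes with the highest mean in each of 5 classes (y axes), with a point for each GFPsh library. GPRC5A at 617 and EPHA2 at 315 CPM lie furthest to the right, and PTGER2, at the foot of the G protein-coupled class, has a mean of 0.76 CPM.

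Tumour antigens and secreted markers were expressed in 14 of 17 cases (82.4%, against 53% of protein-coding genes), 7 of them above 100 CPM. S100P, a calcium-binding protein often high in pancreatic and bile duct cancers, stood at 1891, 2117 and 1607 CPM, and LGALS3 (galectin-3) at 1051, 1203 and 925 CPM. S100P was above LGALS3 per kilobase of exon too, at 1462 against 442 CPM per kb. AGR2, a secretory pathway chaperone, stood at 162, 156 and 202 CPM, WFDC2 (HE4) at 156, 155 and 167 CPM, SAA1, an acute-phase protein with the near-identical copy SAA2, at 162, 165 and 146 CPM, and LCN2 (lipocalin-2) at 126, 124 and 114 CPM. MSLN (mesothelin) stood at 53.3, 76.0 and 61.0 CPM. The clinical markers MUC16 and CEACAM5 (CEA) were low, as given above, and AFP and CLDN18 had no count. The cytokine gene CXCL8 stood at 6.75, 3.11 and 7.17 CPM, and IL6, at 1.46 ± 0.441 CPM, was near the threshold.

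Genes of other cell types that a culture could hold were sparse. Of 18 gastric and intestinal genes 5 were expressed (27.8%, against 53% of protein-coding genes): TFF1, TFF2, MUC5AC, CDX2 and MUC2. Another 10 were at the floor, FABP1, FABP2, SI, CDH17 and LGALS4 without a count. VIL1 (villin) missed the threshold, but all of its last 500 exon bases are shared. None of 7 pancreatic acinar genes was expressed. Of 7 neuroendocrine genes SYP and ENO2 reached 1.70 ± 0.344 and 1.87 ± 0.299 CPM, and CHGA, CHGB and INSM1 had no count.

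Of 12 leukocyte genes 2 were expressed, the MHC class II chaperone CD74 at 29.9, 27.2 and 33.2 CPM and CD14 at 3.78 ± 0.806 CPM. PTPRC (CD45), CD3E, CD3D and MS4A1, markers of leukocytes, had no count. CD68 and LYZ had none either, with 100% and 96.6% of their last 500 exon bases shared. None of 7 endothelial genes was expressed, and PECAM1, at 2, 6 and 7 counts, was the highest. The summed level of the list was 30.1 to 37.9 CPM for leukocyte genes and 0.760 to 1.22 CPM for endothelial genes.

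Over all 15 lists 202 of 440 genes were expressed (45.9%, against 53% of protein-coding genes) and 190 were at the floor. In 189 of the 202 the gene reached 1 CPM in each of the 6 FOSL1 hairpin libraries as well. Of the 10535 expressed protein-coding genes 10087 did so. At the floor there too were 172 of the 190, a share not counted over all genes. Of the 190 genes at the floor, 12 share at least 50% of their last 500 exon bases with another gene, and those named above carry that share beside them.

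FOSL1 itself, the gene that the other hairpins target, stood at 303, 253 and 179 CPM in GFPsh. The FOSL1sh3 libraries held 66.4, 67.4 and 42.9 CPM, and the FOSL1sh10 libraries 72.1, 62.7 and 70.7 CPM. Neither group overlapped GFPsh, at log2 fold changes of -1.98 (SE 0.198) for FOSL1sh3 and -1.94 (SE 0.197) for FOSL1sh10, with adjusted p = 1.2e-05 and 1.03e-05. The test was edgeR's quasi-likelihood F test over 12814 genes, in which 1392 genes (10.9%) were called with FOSL1sh3, 668 higher (5.21%) and 724 lower (5.65%), and 676 (5.28%) with FOSL1sh10, 401 higher (3.13%) and 275 lower (2.15%). Scaled by library totals alone, the higher calls were 34.0% instead of 48.0% of the total with FOSL1sh3 and 77.5% instead of 59.3% with FOSL1sh10. Both comparisons share the GFPsh libraries and, in this fit, the estimate of the spread. Fitted with GFPsh alone, FOSL1sh3 had 966 calls and FOSL1sh10 1124. Of the 440 genes 214 had enough counts to be tested, and 61 of these (28.5%) were called with FOSL1sh3, 41 higher and 20 lower. With FOSL1sh10 34 were called (15.9%), 28 higher and 6 lower. The lists were chosen with earlier results of these data known. The median log2 fold change of the 214 was 0.08 and 0.11, against 0.01 and 0.00 over all genes. In 31 of the 61 and 26 of the 34 the call held in every fit that left out 1 library.

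KRT81 was not called in either comparison. It stood at 9912 to 14598 CPM with FOSL1sh3 (log2 fold change 0.35, SE 0.162, adjusted p = 0.175) and 9843 to 10464 CPM with FOSL1sh10 (-0.10, SE 0.162, adjusted p = 0.81). Of 18 keratins tested 5 rose and 1 fell with FOSL1sh3 (33.3%), and 9 rose with FOSL1sh10 (50%). Over all tested genes the called shares were 10.9% and 5.28%. KRT5 rose in the FOSL1sh10 libraries to 394, 472 and 486 CPM, by 1.81 ± 0.133 (SE) on the log2 scale (adjusted p = 1.27e-07). The FOSL1sh3 libraries held 150.0, 151 and 149 CPM of KRT5 (0.40, adjusted p = 0.0567). KRT86 rose with both, by 0.80 (adjusted p = 0.00446) to 19.6, 24.1 and 26.7 CPM and by 1.67 (adjusted p = 5.23e-06) to 46.6, 50.9 and 47.2 CPM. KRT34 rose with FOSL1sh10 by 2.20 (adjusted p = 1.8e-05), against 0.49 with FOSL1sh3 (adjusted p = 0.209). KRT6B rose by 1.43 and 2.53 (adjusted p = 0.00436 and 2.01e-05). KRT17 rose by 0.84 and 0.79 (adjusted p = 0.00238 and 0.00403). KRT13 rose with FOSL1sh3 by 0.96 (adjusted p = 0.00508), and its value with FOSL1sh10 was -0.63 (adjusted p = 0.0811).

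Among mucins, MUC5AC rose with FOSL1sh3 to 14.99, 17.0 and 20.7 CPM (log2 fold change 1.88, adjusted p = 0.000304), all above its GFPsh libraries. MUC1 rose with FOSL1sh3 by 0.88 (adjusted p = 0.00124). With FOSL1sh10 MUC21 fell to 0.145, 0.248 and 0.547 CPM (-3.58, adjusted p = 0.000446) and MUC4 rose by 1.10 (adjusted p = 0.00299). MUC4 was also called with FOSL1sh3 (0.73, adjusted p = 0.0317), a call that ended without GFPsh replicate 1 or 2 or FOSL1sh3 replicate 3 (adjusted p up to 0.143). In the comparison where they were not called, MUC5AC, MUC1 and MUC21 had values of -0.78, 0.10 and -0.72. In the adhesion list 13 of 44 tested genes were called with FOSL1sh3 and 4 with FOSL1sh10, against 10.9% and 5.28% of all tested genes. ITGB4 rose with FOSL1sh3 to 540.4, 456 and 539 CPM (1.45, adjusted p = 8.28e-06). ITGA3 rose with FOSL1sh3 by 0.80 (adjusted p = 0.00132). L1CAM rose by 1.71 and 1.56 (adjusted p = 9.62e-05 and 0.00016), PPL with FOSL1sh3 by 1.30 (adjusted p = 0.000105), and MCAM by 0.76 and 1.24 (adjusted p = 0.00245 and 2.3e-05). CEACAM6 fell by 1.27 and 1.04 on the log2 scale (adjusted p = 0.00155 and 0.00615). With FOSL1sh10 the values of ITGB4, ITGA3 and PPL were 0.29, -0.16 and -0.31, none of them called.

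Of 15 bile duct genes tested CD24 rose with FOSL1sh10 by 1.21 (adjusted p = 3.34e-05) and KRT7 by 0.71 (adjusted p = 0.00456). SERPINA1 was the hepatocyte gene called, with FOSL1sh10, at 13.8, 15.3 and 18.8 CPM (1.27, adjusted p = 0.00141), against a value of 0.56 with FOSL1sh3 (adjusted p = 0.116). Of 9 mesenchymal genes tested 3 were called with FOSL1sh3 (33.3%, against 10.9% of all tested genes). TNC fell to 10.1, 8.30 and 9.24 CPM (-1.46, adjusted p = 0.000127) and VIM to 1.89, 1.52 and 1.09 CPM (-1.74, adjusted p = 0.00685). Their values with FOSL1sh10 were 0.31 and -0.06, neither called. Among squamous genes that are no keratins S100A9 rose by 2.85 and 4.04 (adjusted p = 0.00309 and 5.72e-05) from under 1 CPM, and CALML5 by 1.66 and 1.52 (adjusted p = 0.000301 and 0.000518). PI3 rose with FOSL1sh3 by 1.10 (adjusted p = 0.000727), against 0.55 with FOSL1sh10 (adjusted p = 0.0669).

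CEBPB rose by 0.67 and 0.87 (adjusted p = 0.00516 and 0.00073) and BARX2 fell by 1.85 and 1.39 on the log2 scale (adjusted p = 0.000537 and 0.00361). KLF4 rose with FOSL1sh10 by 1.03 (adjusted p = 0.00147), against -0.14 with FOSL1sh3. Of 76 receptors tested 16 (21.1%, against 10.9% of all tested genes) were called with FOSL1sh3, led by LPAR1 (-1.05, adjusted p = 0.000463), RXRA (0.80, adjusted p = 0.00309), LRP5 (0.77, adjusted p = 0.00388) and IGF1R (0.99, adjusted p = 0.00646). With FOSL1sh10 3 were called, 3.95% of the 76 against 5.28% of all tested genes, among them PLAUR (0.73, adjusted p = 0.00315) and FZD6 (1.32, adjusted p = 0.00399). FZD6 was also called with FOSL1sh3 (0.86, adjusted p = 0.0388), a call that ended without GFPsh replicate 1 or 2 or FOSL1sh3 replicate 2 or 3 (adjusted p up to 0.134). SAA1 rose with FOSL1sh10 to 1019, 1062 and 1062 CPM (2.63, adjusted p = 5.99e-09), IL6 by 3.01 (adjusted p = 3.24e-05), and MSLN with FOSL1sh3 by 0.87 (adjusted p = 0.002). LCN2 rose by 1.39 and 0.85 (adjusted p = 1.2e-05 and 0.000803) and WFDC2 by 0.69 and 1.06 (adjusted p = 0.00303 and 5.72e-05). CD74 rose with FOSL1sh10 to 121, 177 and 156 CPM (2.22, adjusted p = 1.18e-07), against a value of -0.07 with FOSL1sh3. Whether any of these genes responded differently to the 2 hairpins was not tested. The leukocyte genes at the floor in GFPsh were at the floor with the hairpins in 9 of 10 cases, a share not counted over all genes.

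Other calls did not hold in every fit that left out 1 library. KRT20 was called lower with FOSL1sh3 (-0.68, adjusted p = 0.0266) and higher with FOSL1sh10 (0.69, adjusted p = 0.0334). The first call ended without GFPsh replicate 3, FOSL1sh3 replicate 1 or FOSL1sh3 replicate 3 (adjusted p up to 0.135). The second ended without GFPsh replicate 1 or 2 or FOSL1sh10 replicate 2 or 3 (up to 0.165). KRT20 was named after its values were seen. With FOSL1sh3 the calls of CD24 (0.52), KRT7 (0.46), JAG1 (-0.96), S100A4 (0.58) and FOXA1 (-0.86) each ended without any 1 of the GFPsh libraries. Their adjusted p reached 0.0965, 0.132, 0.124, 0.183 and 0.165. Leaving out a FOSL1sh3 library ended calls too, among them replicate 1 for CD24, JAG1 and FOXA1, replicate 2 for JAG1 and replicate 3 for FOXA1. MUC2 (1.36) and SAA1 (0.60) lost theirs without GFPsh replicate 1 or 3 or FOSL1sh3 replicate 3 (up to 0.097 and 0.0613), MUC5B (1.59) without GFPsh replicate 1 or FOSL1sh3 replicate 3 (up to 0.0925), and GRHL3 (-1.25) without GFPsh replicate 2 or FOSL1sh3 replicate 1 or 3 (up to 0.0903). With FOSL1sh10 TFF1 (-0.58) and ACVR1 (0.91) lost the call in each of 6 fits that left out a library (adjusted p up to 0.111 and 0.135), NECTIN1 (-0.61) in 5 of 6, all but the fit without FOSL1sh10 replicate 1 (up to 0.103), and SOX4 (0.78) without FOSL1sh10 replicate 1 (0.0586).

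**Figure D5:**
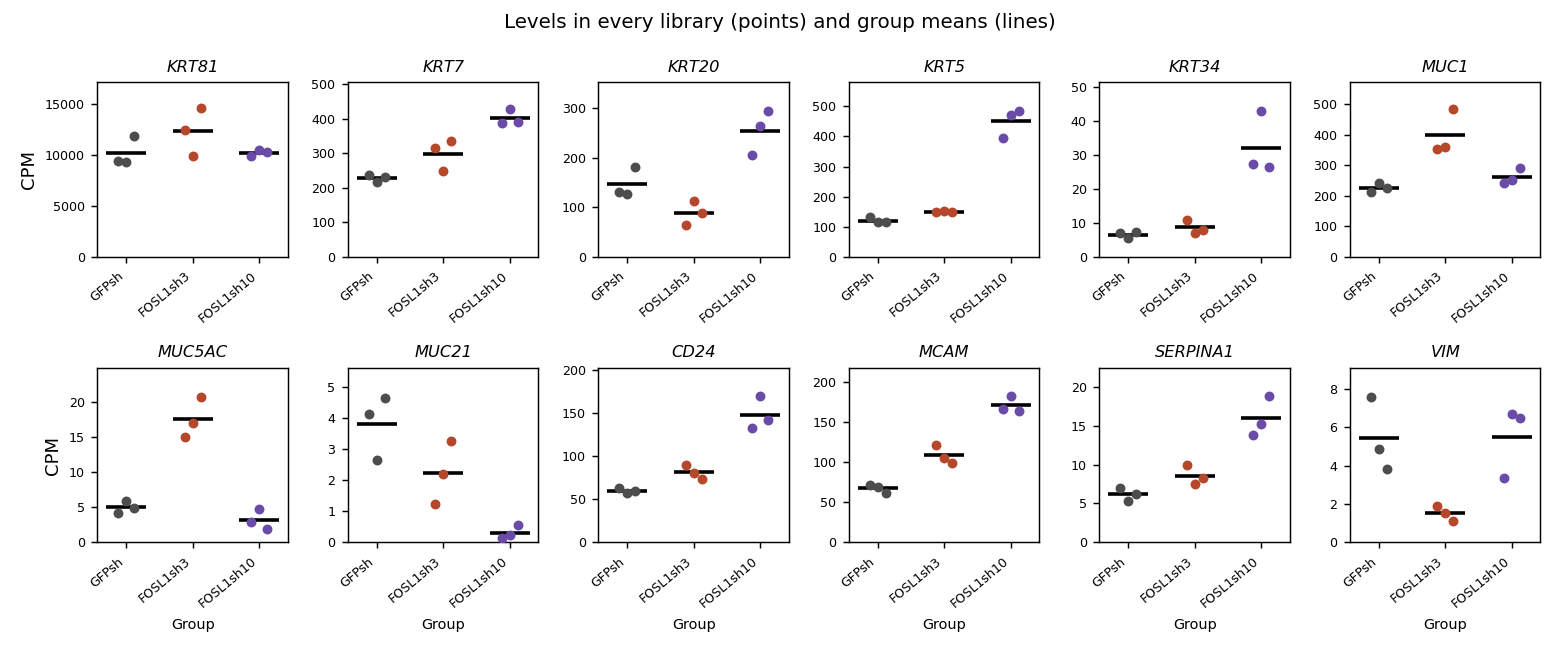
CPM (y axes) of 12 genes in all 9 libraries, with a point for each library and a line for the mean of each group (x axes). KRT81 overlaps between the groups, KRT5 and CD24 are highest with FOSL1sh10, and MUC5AC at 14.99 to 20.7 CPM is highest with FOSL1sh3.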

How the data were processed

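Each library came with a table that the authors deposited, holding raw counts (whole numbers of reads per gene). Per the labels, RNA above a quality minimum went into a low-input 3'-tag protocol (MARS-seq). FastQC 0.11.5 and the aligner STAR 2.5.3a were used on the hg38 genome, per the submitters' processing notes. Per the file headers, featureCounts 1.6.0 counted reads over exons of GENCODE release 28 with no option for strand, multi-mapping or overlapping genes, so a read in exons of 2 genes is counted for neither. The sources used here do not give whether molecular identifiers were collapsed. Floors cover counting error only.

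CPM was computed over library totals. Of 58381 genes, 57754 matched a current symbol, and GENCODE release 29 gave gene types and transcripts. Tests used edgeR 4.0.16 (R 4.3.3) with its default filter, TMM, all 9 libraries and group as the only term, at a Benjamini-Hochberg adjusted p under 0.05. DESeq2 1.42.0 was an alternative. The fit was tested on simulated data. SE was taken as the log2 fold change divided by the root of its F value, without sign. The members and lists were chosen with earlier results of these data known. Genes named were the 25 with the highest mean CPM, the 6 highest of each list and 3 of each role, those at the floor or next to 1 CPM, FOSL1, and up to 4 called members per list and comparison with the smallest p. Alternatives covered the threshold, scaling, thinning to the smallest total, ranking per kilobase, the filter, the samples fitted, a replicate block and leaving out each library. Some list genes are counted but not reported here by name.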

Additional observations from a re-analysis of the deposited data

How the results depend on the processing

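The count of expressed genes was 11934 to 12001 without 1 GFPsh library, 12994 at a threshold of 0.5 CPM and 8631 at 5 CPM, against 11717. At 5 CPM the lists with the fewest or lowest members moved by over 1.5 times: mesenchymal to 4, tumour antigens and secreted markers to 9, gastric and intestinal to 2, leukocyte to 1 and neuroendocrine to 0, the last also at 2 CPM. With TMM scaling the mean CPM of each of the 158 named genes moved by less than its SD. Leaving out a library kept 23 to 25 of the 25 most abundant genes. With FOSL1sh3 the calls ranged from 599 (without GFPsh replicate 1) to 1803 (without FOSL1sh3 replicate 2), and were 895, 747 and 756 without GFPsh replicates 2 and 3 and FOSL1sh3 replicate 3. Called list members ranged from 35 to 64. With FOSL1sh10 each library left out gave 347 to 422 calls, and 29 to 31 called list members. The fit of GFPsh and FOSL1sh10 alone gave 1124 calls, against 676 with all libraries. That of GFPsh and FOSL1sh3 alone gave 966, against 1392. Which hairpin had more calls thus depended on the libraries fitted. The cause was not tested. With the replicate number as a block the calls were 1454 and 695, and 3 of 62 and 0 of 35 calls of list members and FOSL1 were lost. Deviations of same-numbered GFPsh and FOSL1sh3 libraries correlated at 0.18, 0.03 and 0.13, against -0.17 to 0.03 for different numbers. For GFPsh and FOSL1sh10 libraries the values were -0.12, -0.10 and 0.04, against -0.07 to 0.16. These few values do not decide whether the numbers pair the libraries. Not every library correlated best with its own number: GFPsh replicate 2 did so with FOSL1sh10 replicate 1, at 0.16. Depth sets the floor of 3 counts at 0.326 to 0.413 CPM, and the level of a gene that held counts at the floor may lie above it.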

Other observations

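Outside the lists, the ribosomal proteins and the mitochondria, the next most abundant genes of the GFPsh libraries were mostly those of the cytoskeleton, protein folding and glycolysis. TPT1, a translation-associated tumour protein, stood at 4801, 5833 and 3386 CPM, with replicate 3 low. RACK1, a ribosome-bound scaffold, stood at 3907 ± 445 CPM. The chaperones HSPA8 and HSP90AB1 stood at 3172 ± 407 and 2476 ± 59.2 CPM, the membrane-binding ANXA2 and its partner S100A10 at 3156 ± 523 and 2104 ± 360 CPM, the actin-severing CFL1 at 3031 ± 158 CPM and the glycolytic enzyme ENO1 at 2478 ± 400 CPM. HMGA1, a chromatin protein of embryonic and cancer cells, stood at 2165, 2316 and 1655 CPM. These genes were listed by rank after the levels were seen, and several have processed pseudogenes that can take or cost reads.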
